A study of Mus musculus with 6 samples.

Results

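Hearts of mice on a high fat diet (HFD) or a normal diet (ND) were compared for 9 genes whose proteins shape, tie or repair cell membranes. They are *Amph*, *Bin1*, *Dnm2*, *Mtm1*, *Jph1*, *Jph2*, *Cav1*, *Cav3* and *Dysf*, taken by exact gene name from the array design. All 9 genes were on the array, with 11 of its 55681 probes other than controls. The set was built around *Amph*, which was chosen for its difference between HFD and ND on these same arrays. Its difference is therefore given as a description with no test, whereas the other 8 genes were chosen by what their proteins do, with earlier results of these data known. Male C57BL/6 mice were put on a diet at 4 weeks of age and kept on it for 4 months, either on an HFD with 60% of its kcal from fat or on standard chow (ND). RNA from the hearts of 3 mice per diet was measured on Agilent 1-colour arrays, 1 heart per array, and the labels name no transgene or agent in either group. The labels name heart tissue and no chamber.

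Transverse tubules (T-tubules) are inward folds of the cardiomyocyte membrane that bring the action potential to the calcium release channels of the sarcoplasmic reticulum. Amphiphysins carry a BAR domain, a curved module that bends membrane into tubes, and BIN1 is the family member best known for T-tubules in muscle, while AMPH is best known from nerve terminals, where it helps to retrieve synaptic vesicles. Dynamin pinches tubes off, myotubularin removes phosphate from the phosphoinositides that recruit such proteins, junctophilins tie the tubule to the sarcoplasmic reticulum, caveolins form the flask-shaped pits called caveolae, and dysferlin serves membrane repair and is found at tubules.

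A level below is the log2 of a probe's intensity over the 75th percentile of its array, so 0 is the brightness that 75% of the spots do not exceed. A difference is the HFD mean minus the ND mean of these levels, given as mean ± SD (n = 3) per diet and with its standard error (SE). Each probe binds its own RNA with its own strength, so levels are compared between hearts and not between probes. The RNA comes from whole tissue, so a change in the RNA per cell and a change in the share of cells of a type cannot be told apart. The ventricular cardiomyocyte markers summed to 4740 to 4820 times the 75th percentile in ND and 4180 to 5000 times in HFD, and all 10 of them were well above background. Atrial markers differed widely between single hearts, from 198 to 981 in ND and from 56.2 to 1150 in HFD, and erythroid markers were lower in HFD, at 577 to 737 in ND and 367 to 514 in HFD. All 6 arrays lay on 1 slide with 1 scan time, where HFD 1 and HFD 2 took the first row and HFD 3 and the 3 ND hearts the second. Values of HFD 3 against the ND mean are therefore given as well for the member probes, as differences within a row. Such differences were not worked out for the pathway genes. Nothing in the labels says more of the replicates than that they are separate samples, and p-values measure the spread between these samples.

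Each measurement rests on a probe of 60 bases. The leading 30 bases are printed for *Amph* and *Dysf* and for the genes with a pair of probes, *Dnm2* and *Mtm1*, which were read at different places. Positions are those of the array design on mm9, and whether a probe lies in a coding part or a UTR was not worked out. The letters are in lower case, 5′ to 3′, with nothing marked, and none are given for *Bin1*, *Jph1*, *Jph2*, *Cav1* and *Cav3*. No probe shared a run of 20 bases with a probe of another gene. The 11 probes carry 10 transcript accessions, since those of *Dnm2* share 1, and all 10 had the same symbol in RefSeq (GRCm38.p6).
*Amph* probe A_51_P423518: aacgaggtgatgtatgctgtatcagaaacc
*Dnm2* probe A_55_P2100679: tgtaccacgcactgaaggaggccctcaaca
*Dnm2* probe A_55_P2001203: ggattgaccactgttaagtgcctgcctctg
*Mtm1* probe A_55_P2043977: cagcagaagagatatgtttgagatccttgt
*Mtm1* probe A_55_P2043982: catttatctttgtaaattattttatgtcat
*Dysf* probe A_55_P1964183: aacactcctctggataaactcttggctttc

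*Amph* RNA was higher in every HFD heart than in any ND heart. Its only probe (NM_175007, from base 3104 of the transcript, chr13:19242694-19242753, plus strand) read an intensity of 315, 306 and 334 in the ND hearts and of 843, 808 and 1090 in the HFD hearts. On the level scale these are -0.63, -0.66 and -0.52 in ND and 0.71, 0.83 and 1.0 in HFD. The diets lay far apart, with no HFD heart near the ND range and with ND hearts that hardly differed from each other. The means were -0.60 ± 0.08 in ND and 0.85 ± 0.15 in HFD, a difference of 1.45 (SE 0.10) or 2.74-fold. Ranked by size of increase, *Amph* was at place 37 of 27590 tested probes. HFD 3, the only HFD heart in the row of the ND hearts, was 1.61 above the ND mean.

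AMPH is a protein of nerve terminals, so the levels of neuron markers are set beside it. Of 14 neuron markers 9 were tested, and the other 5, among them *Nefl*, *Nefm*, *Prph* and *Syt1*, were not, since they were not well above background on every array of either diet. The summed level of the 9 was 30.6 to 31.5 in ND and 34.4 to 35.9 in HFD, higher in every HFD heart, and *Snap25* made up 59.9% of it. Their median difference was -0.05, with 4 of the 9 above 0 and 5 below. *Snap25* differed by 0.20 (SE 0.08), with every HFD heart above every ND heart. *Dbh* differed by 0.46 (SE 0.27) and *Tubb3* by 0.41 (SE 0.30), and the diets overlapped on both. At an unadjusted p below 0.05 *Elavl4*, *Stmn2* and *Th* were lower, with differences of -0.33, -0.35 and -0.25. *Gap43* was higher at that p, but it was well above background on 2 of the 3 ND arrays against 3 of 3 in HFD, so its ND level was only partly measured. Thus 44.4% of the 9 were past that p, beside 11.9% of all probes. On 5 of the 9 the diets did not overlap, as on 19.0% of all probes. *Elavl4* was dim, with a mean level of -3.08 in ND and -3.41 in HFD. Of 9 glia markers 7 were tested, *Gfap* not among them, and their summed level was 4.06 to 5.87 in ND and 3.61 to 6.46 in HFD. Skeletal muscle also expresses amphiphysins. Of its 10 markers 4 were tested, with a summed level of 18.1 to 19.2 in ND and 16.4 to 18.4 in HFD and a median difference of -0.43. *Atp2a1* made up 82.6% of the sum and differed by -0.01 (SE 0.08), *Pvalb*, *Tnni2* and *Tnnt3* by -0.46, -0.41 and -0.44, and of these *Tnni2* had an unadjusted p below 0.05. The others, *Actn3*, *Myh1*, *Myh2*, *Myh4*, *Mylpf* and *Myog*, were not well above background on every array of either diet. The part of any of these cells in the *Amph* values was not tested.

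**Figure D1:**
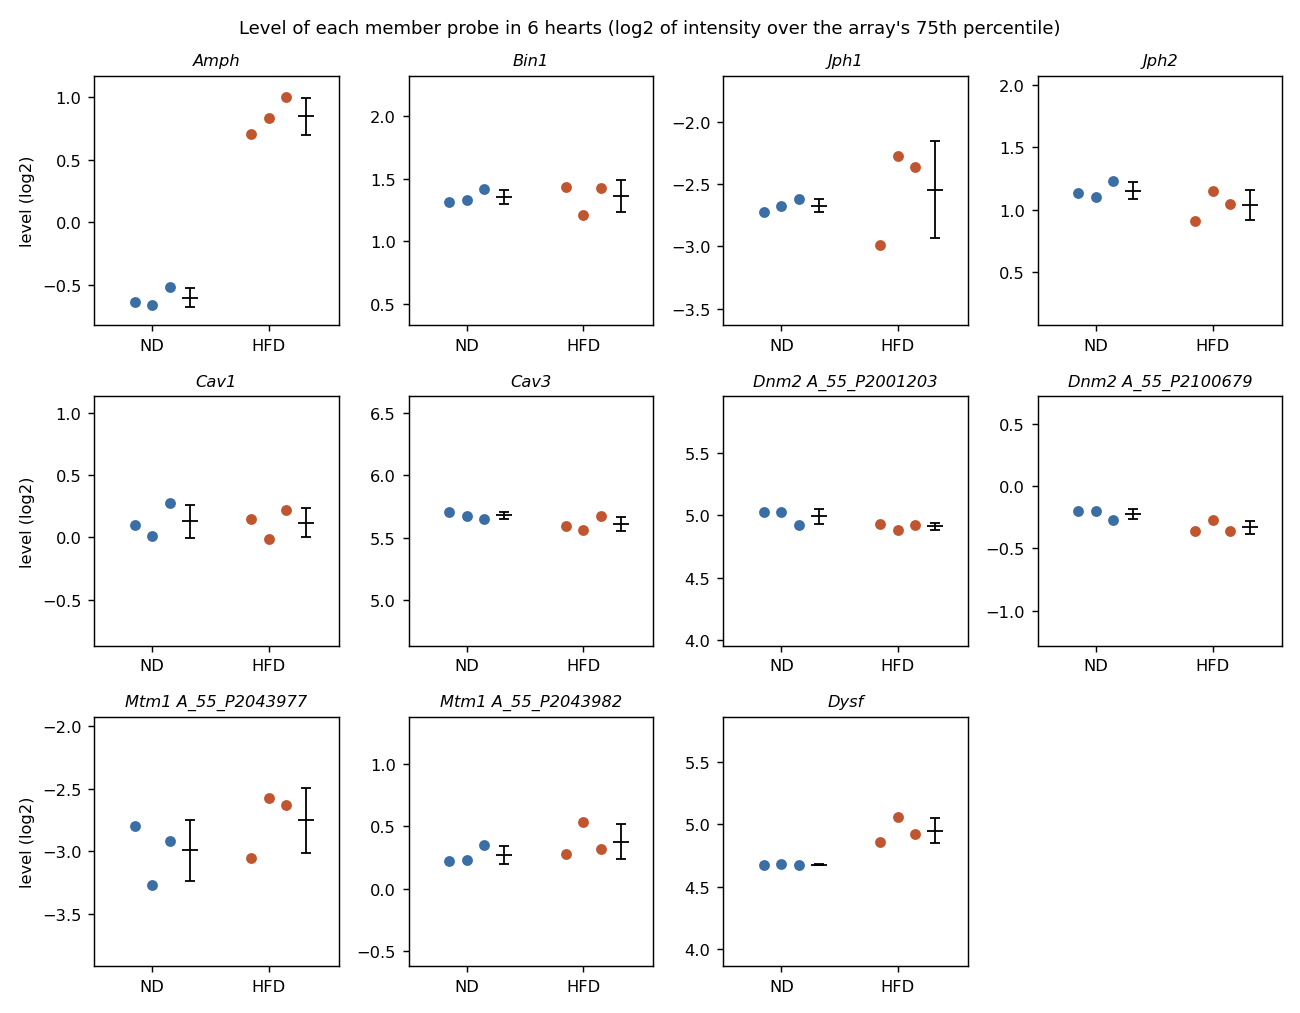
Level of each of the 11 probes in the 6 hearts, as log2 of intensity over the 75th percentile of the array (vertical axis, of the same length in each panel and centred on the probe), by diet (horizontal axis). Points are hearts in the order of their replicate numbers and black bars the mean ± SD (n = 3). *Amph* is the only panel in which the diets lie more than 1 log2 unit apart.

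Across all 27590 probes tested, 0.0145% (4 probes) passed an adjusted p of 0.05 in limma, 11.9% (3275 probes) had an unadjusted p below 0.05, and in 19.0% (5236 probes) the diets did not overlap. All 11 member probes were well above background on all 6 arrays and were tested. The 1 member probe past the adjustment was *Amph*, in the contrast it was chosen on, so nothing is read from that count, which was 0 with any 1 of the 6 hearts left out. Of the 10 probes of the other 8 genes, 0 passed the adjustment in limma, 1 (10%) had an unadjusted p below 0.05, and 2 (20%) did not overlap, which are shares near those of all probes. Of these differences 5 were above 0 and 5 below, and their median was -0.003 against -0.01 over all probes tested. Hearts of the same diet differed little on these probes, with a median SD of 0.10 against 0.14 over all probes, and 8 of the 10 lay under that median. Within the row, HFD 3 minus the ND mean was 0.08 for *Bin1*, 0.31 for *Jph1*, -0.11 for *Jph2* and 0.09 for *Cav1*. It was -0.07 (A_55_P2001203) and -0.14 (A_55_P2100679) for *Dnm2*, and 0.36 (A_55_P2043977) and 0.04 (A_55_P2043982) for *Mtm1*. Those of *Cav3* and *Dysf* are given with these genes.

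**Figure D2:**
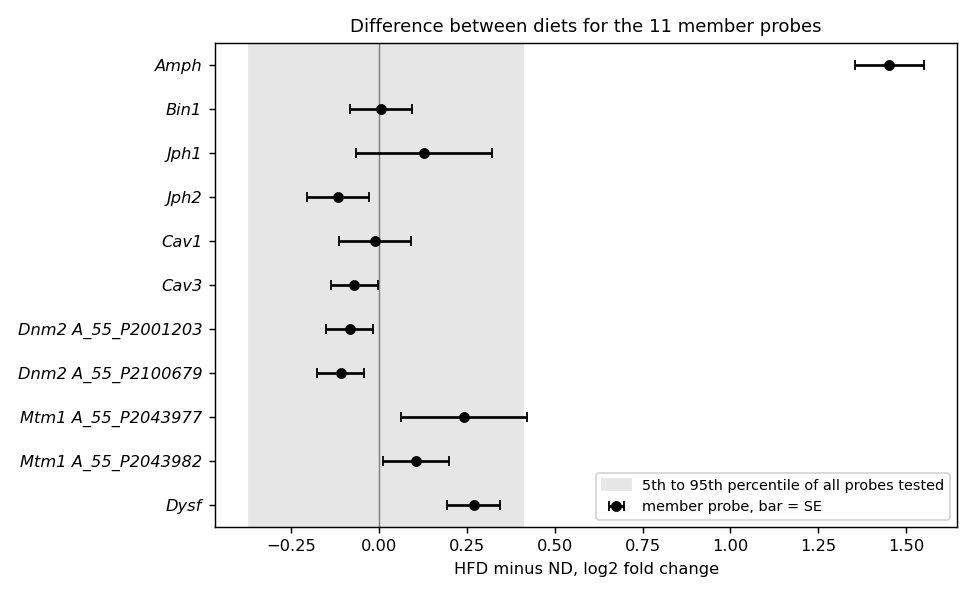
Difference between diets of each probe (horizontal axis, HFD minus ND as log2 fold change) with its standard error, and the 5th to 95th percentile of all 27590 probes tested as a grey band, -0.37 to 0.41. *Amph* lies at 1.45, outside the band, and the other 10 probes lie inside it.

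*Bin1*, the amphiphysin of muscle tubules, did not differ detectably between diets. Its probe on chromosome 18 (NM_009668, a sequence found in 2 RefSeq transcripts) read 1.32, 1.33 and 1.42 in ND and 1.44, 1.21 and 1.43 in HFD. The HFD hearts lay on both sides of the ND hearts, with HFD 2 the lowest and HFD 1 the highest of the 6. The difference was 0.01 (SE 0.09, unadjusted p = 0.952), with a 95% interval of -0.21 to 0.22. Muscle makes several spliced forms of *Bin1*, which 1 probe does not separate.

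*Dnm2* encodes the dynamin found throughout the body, and its pair of probes leaned the same way by a small amount. Probe A_55_P2001203 (from base 3423 of NM_001039520, chr9:21311509-21311568, plus strand) read 5.03, 5.03 and 4.92 in ND and 4.93, 4.88 and 4.93 in HFD, so the diets overlapped. Probe A_55_P2100679 (from base 2324, chr9:21308989-21309048, plus strand) read -0.20, -0.20 and -0.27 in ND and -0.36, -0.27 and -0.36 in HFD. On the latter all 3 HFD hearts were below the 3 ND hearts, HFD 2 by less than the second decimal. The differences were -0.08 (SE 0.07, unadjusted p = 0.258) and -0.11 (SE 0.07, unadjusted p = 0.152), with intervals of -0.25 to 0.08 and -0.27 to 0.05. Neither passed a test at 0.05 in limma, and the latter had an unadjusted p of 0.043 in the methods' t-test.

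*Mtm1* encodes myotubularin, a phosphatase whose loss causes a centronuclear myopathy, as do mutations of *BIN1* and *DNM2* in people. The probe that lies in 4 RefSeq transcripts, A_55_P2043982 (from base 3199 of NM_001164190, chrX:68568182-68568241, plus strand), read 0.22, 0.23 and 0.35 in ND and 0.28, 0.53 and 0.31 in HFD. HFD 2 stood above the rest and the others overlapped, for a difference of 0.10 (SE 0.09, unadjusted p = 0.308). The other, A_55_P2043977 (from base 468 of NM_001164193, chrX:68512941-68513000, plus strand), read -2.80, -3.27 and -2.92 in ND and -3.05, -2.57 and -2.63 in HFD. That probe was dim, with intensities of 50.1 to 87.6, and its hearts were scattered within both diets. Its difference was 0.24 (SE 0.18, unadjusted p = 0.225), with a wide interval from -0.20 to 0.68. It was 0.10 without ND 2, 0.15 without HFD 2 and 0.39 without HFD 1, and on the probe in 4 transcripts it was 0.03 without HFD 2.

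The junctophilins hold the tubule near the sarcoplasmic reticulum, and JPH2 is the form of the heart muscle. The *Jph2* probe (chr2:163163526-163163585, minus strand) read 1.13, 1.1 and 1.23 in ND and 0.91, 1.15 and 1.05 in HFD. Below all ND hearts were HFD 1 and HFD 3, with HFD 2 among them, and the difference was -0.12 (SE 0.09, 95% interval -0.33 to 0.10, unadjusted p = 0.233). *Jph1*, the form best known from skeletal muscle, gave intensities of 74.0, 75.6 and 77.6 in ND and 64.9, 93.4 and 105.6 in HFD (chr1:16987545-16987604, minus strand). The ND hearts agreed closely, whereas HFD 1 was the lowest and the other HFD hearts the highest of all. The difference in level was 0.13 (SE 0.19, unadjusted p = 0.53), with the widest interval of the 11 probes, -0.34 to 0.60. Without HFD 1 it was 0.35 (unadjusted p = 0.0062, not past the adjustment in limma), and without HFD 2 it was -0.004, so it rested on single hearts.

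Caveolin 3 is the muscle form that lines cardiomyocyte caveolae and early tubules, and caveolin 1 is the form of endothelial and fat cells. *Cav3* (chr6:112422739-112422798, plus strand) read 5.71, 5.68 and 5.65 in ND and 5.59, 5.56 and 5.67 in HFD. Below all ND hearts were HFD 1 and HFD 2, while HFD 3 lay among them. The difference was -0.07 (SE 0.07, 95% interval -0.23 to 0.09, unadjusted p = 0.332), and HFD 3 against ND gave -0.01. *Cav1* (chr6:17289414-17289473, plus strand) read 0.10, 0.01 and 0.27 in ND and 0.15, -0.01 and 0.22 in HFD. These values interleaved, with a difference of -0.01 (SE 0.10, 95% interval -0.26 to 0.24, unadjusted p = 0.919). Of 8 adipocyte markers 7 were tested, without *Lep*, and their summed level was 180 to 195 in ND and 164 to 204 in HFD, with *Fabp4* as 97.3% of it. *Fabp4* differed by -0.03 (SE 0.11), so that sum says little of the others. Of the 7 differences 2 were above 0 and 5 below, with a median of -0.40. *Lipe* was higher in every HFD heart (0.37, SE 0.14). *Cfd* (-1.78, SE 1.21), *Cidec* (-1.02, SE 1.05), *Retn* (-0.76, SE 0.83) and *Adipoq* (-0.40, SE 0.92) scattered widely between HFD hearts. The part of fat cells in the *Cav1* values was not tested.

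*Dysf*, which encodes dysferlin, was the member other than *Amph* that stood highest in HFD relative to its spread. Its probe (from base 6776 of NM_001077694, chr6:84160977-84161036, plus strand, found in 2 RefSeq transcripts) gave intensities of 12470, 12396 and 12156 in ND and of 14949, 15065 and 16505 in HFD. As levels these are 4.67, 4.68 and 4.67 in ND and 4.86, 5.05 and 4.92 in HFD. The ND hearts were nearly equal and every HFD heart was above them. The means were 4.68 ± 0.005 in ND and 4.95 ± 0.10 in HFD, a difference of 0.27 (SE 0.08) or 20.6%, with a 95% interval of 0.09 to 0.45. Its unadjusted p was 0.0116 and its adjusted p 0.286 in limma, so it did not pass the adjustment over all probes. HFD 3 against ND gave 0.25, and with slide row as a term in the fit the unadjusted p was 0.0852.

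**Figure D3:**
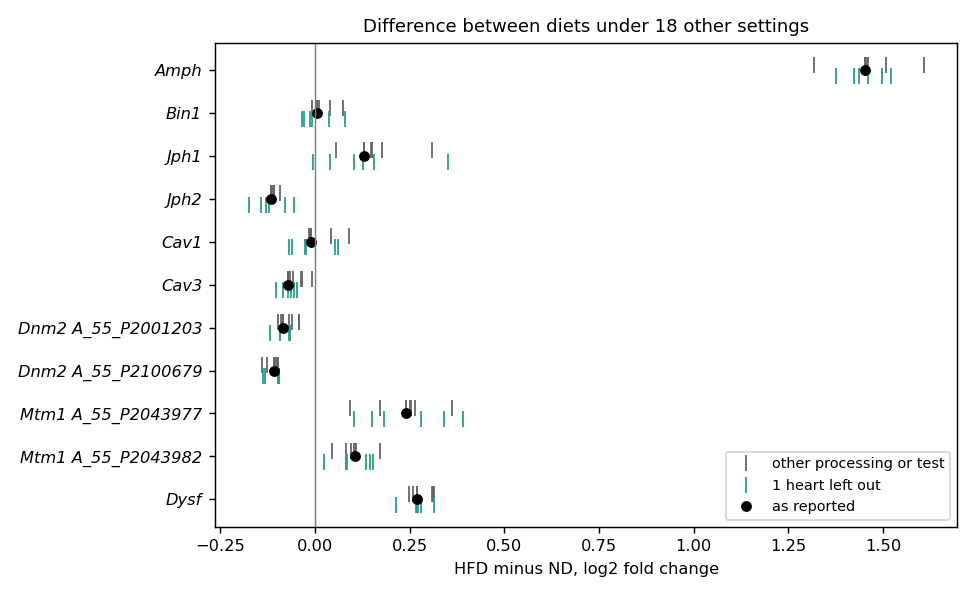
Difference between diets of each probe (horizontal axis, HFD minus ND as log2 fold change) as reported (black) and under 18 other settings, of which 12 change the processing or the test (grey ticks) and 6 leave out 1 heart (green ticks). *Amph* stays between 1.32 and 1.61 and *Dysf* between 0.22 and 0.31, while *Bin1*, *Cav1* and *Jph1* have ticks on both sides of 0.

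Other genes of the same membrane pathways were taken as 5 lists with 93 genes, of which 86 were tested, each by its brightest tested probe. Of these, 0 passed the adjustment in limma, 9 had an unadjusted p below 0.05 (10.5%, against 11.9% of all probes), 1 higher and 8 lower in HFD, and 16 did not overlap (18.6%, against 19.0%). The median difference was -0.05, against -0.01 over all probes tested. With quantile normalization the list medians were 0.01 for amphiphysin partners, -0.07 for caveolae and -0.03 for phosphoinositide enzymes. They were -0.005 for ferlins and membrane repair and -0.05 for dyad proteins, against 0.006 over all probes. The genes at an unadjusted p below 0.05 include *Ehd1* and *Ehd3*, which are neither among the 2 highest nor the 2 lowest of their list and were chosen after their values were seen.

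Partners of amphiphysin in endocytosis include clathrin, adaptors, endophilins, intersectins and synaptojanin. Of 27 such genes 26 were tested, without *Dnm3*, and 11 differences were above 0 and 15 below, with a median of -0.02. One had an unadjusted p below 0.05, *Itsn1*, which encodes a scaffold that binds dynamin. Its brightest probe read 6.09, 6.05 and 6.07 in ND and 5.80, 5.90 and 5.64 in HFD, a difference of -0.29 (SE 0.09, unadjusted p = 0.0143, adjusted p = 0.306), but the other 5 tested probes of *Itsn1* gave -0.07 to 0.29. *Dnm1*, the dynamin of nerve cells, differed by -0.27 (SE 0.24), and its other probe by -0.07 (SE 0.09). The highest differences were those of *Sh3gl3*, an endophilin, at 0.55 (SE 0.31), and *Bin2*, a BAR protein of blood cells, at 0.45 (SE 0.23), and the diets overlapped on both. *Bin2* was well above background on 2 of 3 ND arrays and on all 3 of HFD.

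The caveolae list held the 4 EHD genes, which encode ATPases of the dynamin type that sit at membrane tubes and caveolar necks, and 5 coat genes. On its brightest probe each of the 4 EHD genes was lower in every HFD heart, at an unadjusted p below 0.05, so 44.4% of the 9 genes were past that p, beside 11.9% of all probes. *Ehd4* read 6.74, 6.86 and 6.93 in ND and 6.55, 6.57 and 6.59 in HFD, a difference of -0.27 (SE 0.07, unadjusted p = 0.011, adjusted p = 0.285), and its other probe gave -0.24 (SE 0.07). *Ehd2* read 3.97, 3.90 and 3.92 in ND and 3.62, 3.85 and 3.50 in HFD, a difference of -0.27 (SE 0.10). A dimmer *Ehd2* probe gave 0.07 (SE 0.11), so the probes of that gene disagreed. *Ehd3* differed by -0.26 (SE 0.10) and *Ehd1* by -0.22 (SE 0.09), the latter with another probe at -0.18 (SE 0.11) on which the diets overlapped. The coat genes *Murc*, now named *Cavin4*, and *Sdpr*, now *Cavin2*, differed by 0.05 (SE 0.10) and 0.001 (SE 0.08). Endothelial cells also hold caveolae, and all 9 endothelial markers were tested. Their summed level was lower in every HFD heart, at 117 to 119 in ND and 102 to 115 in HFD, with a median difference of 0.02. *Flt1* made up 36.7% of that sum, and *Flt1* (-0.36, SE 0.12) and *Kdr* (-0.26, SE 0.08) were the markers lower at an unadjusted p below 0.05. Of the 9 differences 5 were above 0 and 4 below, and *Tek* was higher in every HFD heart (0.15, SE 0.07). The part of endothelial cells in the EHD values was not tested.

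Phosphoinositide enzymes, the kinases and phosphatases that act with or against myotubularin, had 5 of 20 differences above 0 and 15 below, with a median of -0.05. *Mtmr14*, a myotubularin relative expressed in muscle, was the 1 gene at an unadjusted p below 0.05. It read 1.5, 1.51 and 1.39 in ND and 1.06, 1.16 and 1.06 in HFD, so the diets were well apart. The difference was -0.38 (SE 0.07, unadjusted p = 0.00188, adjusted p = 0.177), and its other probe gave -0.27 (SE 0.09). *Pikfyve*, well above background on 2 of 3 HFD arrays, differed by -0.28 (SE 0.24), *Mtmr12*, whose protein partners myotubularin, by 0.17 (SE 0.08), and *Pik3c2a* by 0.20 (SE 0.18), each with an unadjusted p above the threshold of 0.05. Another *Pik3c2a* probe went the other way, at -0.07 (SE 0.20).

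Ferlins and membrane repair proteins, the relatives and partners of dysferlin, had 11 of 15 genes tested, with 2 differences above 0 and 9 below and a median of -0.03. *Fer1l4*, *Fer1l5*, *Fer1l6* and *Myof* were not tested. None of the 11 had an unadjusted p below 0.05. *Trim72*, which encodes the repair protein MG53, read 4.27, 4.19 and 4.29 in ND and 4.10, 4.24 and 4.13 in HFD, and these overlapped, with a difference of -0.10 (SE 0.07). The values at the ends of the list were -0.13 (SE 0.14) for *Otof*, another ferlin, and 0.14 (SE 0.21) for *Capn3*, a muscle calpain. *Capn1*, a calpain of most tissues, differed by 0.13 (SE 0.08).

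Dyad proteins, those of the junction between tubule and sarcoplasmic reticulum, had 20 of 22 genes tested, without *Jph3* and *Jph4*. Of these differences 7 were above 0 and 13 below, with a median of -0.08. An unadjusted p below 0.05 was seen for 15% of the 20, 1 higher and 2 lower, against 11.9% of all probes. *Cacnb2*, the beta subunit that brings the L-type calcium channel to the membrane, read 0.48, 0.33 and 0.39 in ND and 1.05, 0.81 and 0.85 in HFD. Every HFD heart was above every ND heart, and its other probe gave a difference of 0.44 (SE 0.15). The difference of the brighter probe was 0.50 (SE 0.09), or 41.5%, with an unadjusted p of 0.00158 and an adjusted p of 0.166. The pore subunit *Cacna1c* differed by 0.24 (SE 0.15). *Asph*, whose locus encodes junctin and junctate besides an enzyme, differed by -0.28 (SE 0.08, unadjusted p = 0.0138), but its 4 probes ran from -0.28 to 0.12. *Lrrc10* differed by -0.30 (SE 0.13).

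**Figure D4:**
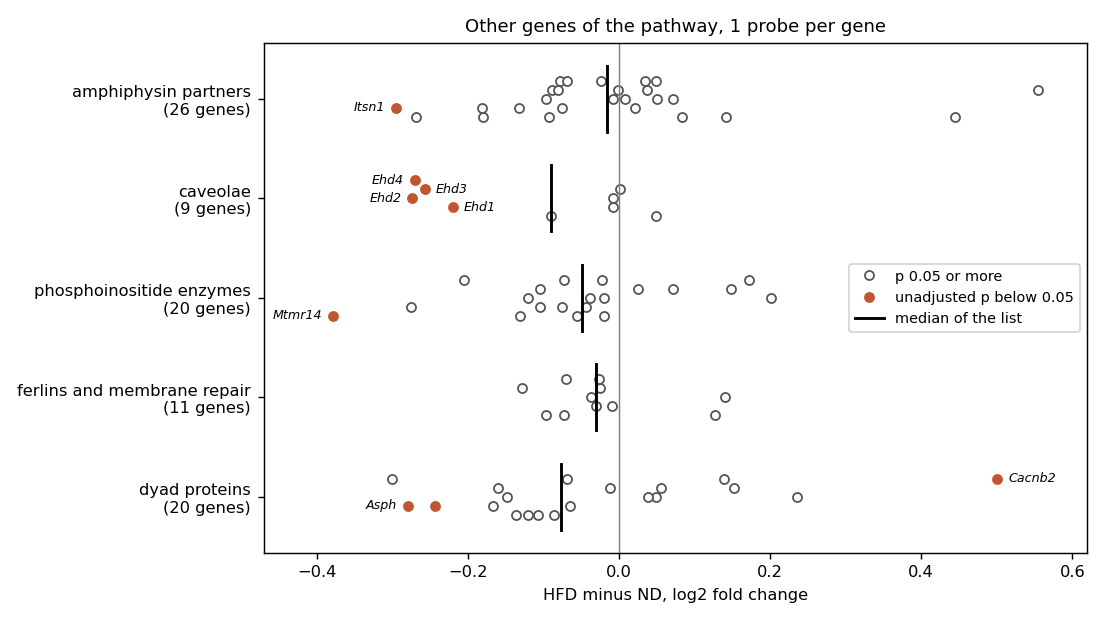
Difference between diets (horizontal axis, HFD minus ND as log2 fold change) of the 86 tested genes of 5 pathway lists, 1 probe per gene, with the 9 genes at an unadjusted p below 0.05 filled and 8 of them named. The black lines are the medians of the lists, between -0.09 and -0.02, and the brightest probes of the 4 EHD genes lie together near the left end of the caveolae list.

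**Figure D5:**
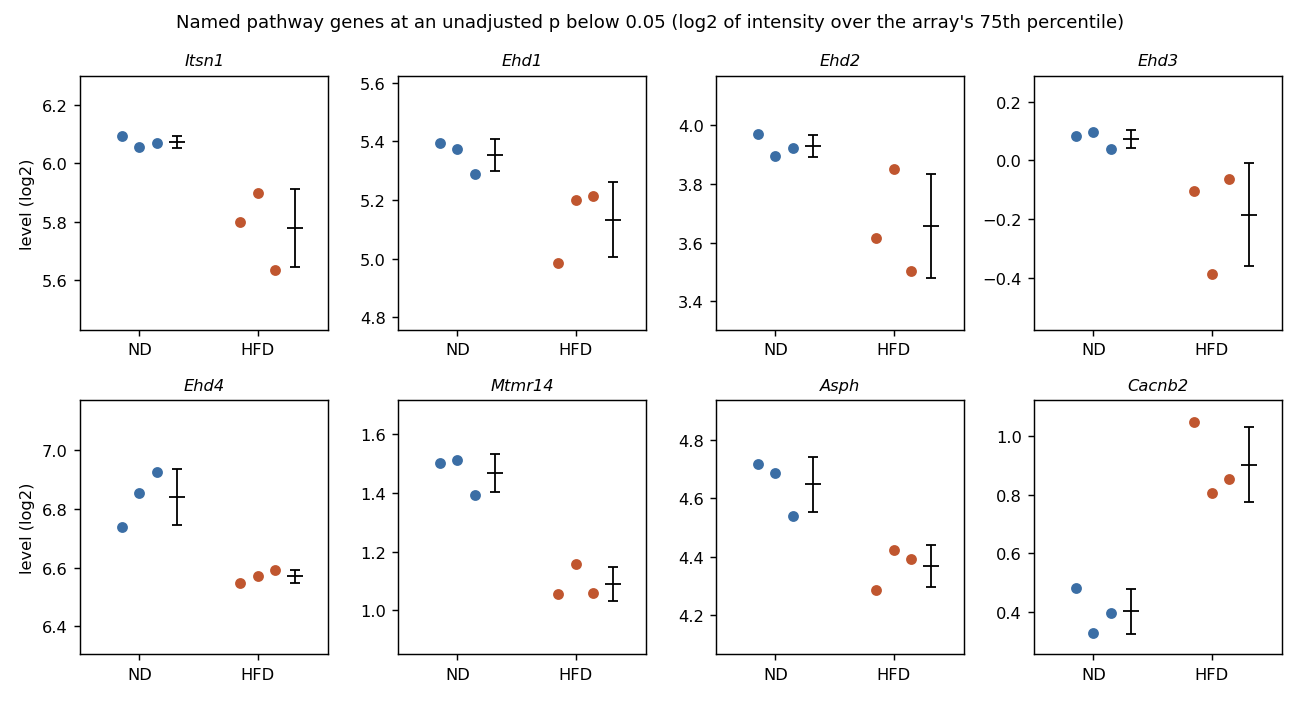
Level of the 8 named genes in the 6 hearts, as log2 of intensity over the 75th percentile of the array (vertical axis), by diet (horizontal axis), with the mean ± SD (n = 3) in black. *Cacnb2* is the gene with all HFD hearts above ND, and in the other 7 all HFD hearts are below ND.

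Genes whose levels over the 6 hearts followed *Amph* most closely were sought among the 25923 other probes that stood well above background in all 6 hearts. The 5 genes with the highest Pearson's r were *Thrb* (0.994), a thyroid hormone receptor, *Slc22a5* (0.994), a carnitine transporter, *Lrrc36* (0.993), *Chrna2* (0.993), a nicotinic receptor subunit, and *Cgref1* (0.992). They shared the split between the diets more than its size, with differences of 0.23, 0.36, 1.24, 2.05 and 0.72. Among the members, *Dysf* followed *Amph* with an r of 0.922, the *Dnm2* probes ran opposite with -0.845 and -0.764, and *Bin1* (0.06) and *Cav1* (0.02) did not follow it. These r describe 6 hearts that share 1 slide and fall into 2 diets, and are given with no test. *Amph* was chosen for its split between the diets, so an r with it largely restates the diet difference of the other probe.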

How the data were processed

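The authors deposited the scanner output of 6 Agilent arrays of 1 colour, and its processed intensity, on a linear scale, was used. Per the file headers, Agilent Feature Extraction 10.7.1.1 had subtracted background within each array, and nothing had been scaled between arrays. A log2 table was deposited by the authors too, whose making is not given in the sources used here. Each of its columns followed its own array (Spearman's rho 1) and had a median of 4.557, so it was already scaled between arrays, and it was used as an alternative. The deposited spot and background intensities served the alternative normexp correction (offset 50).

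Controls and spots that carried an outlier flag (127 to 190 on each array) were dropped, and spots of a probe were averaged. The 75th percentile of each array was subtracted on the log2 scale. The test took the 27590 probes that were well above background in all hearts of 1 diet or both and measured in 2 or more hearts per diet. It was run in limma 3.58.1 under R 4.3.3 (lmFit and eBayes, two-sided), with Benjamini-Hochberg adjustment over all of them. The share of probes well above background ran from 49.2% to 53.0%, no spot was saturated, and 3 hearts per diet limit the precision. All arrays differed in their values, with a Pearson's r of 0.990 to 0.995 within a diet.

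The members, the gene lists and the tests were chosen with earlier results of these data known. Named are all member probes, the 2 lowest and 2 highest genes of each pathway list with any past the adjustment, and the 5 genes most like *Amph*. A marker list is given as the sum of its tested genes' linear levels. The separate results of some list members are not reported here. The fit was tested on simulated data. Alternatives were quantile normalization, normexp, other filters, the methods' t-test, the authors' log2 table, trend and robust variances, array weights, kept outlier spots, a replicate block, slide row, averaged probes and each heart left out. Files were read with the R package data.table (version 1.17.8), and figures were drawn with matplotlib.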

Additional observations from a re-analysis of the deposited data

How the results depend on the processing

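The number of probes past the adjustment, 4 as reported, was 40 with normexp, 0 with no filter, 2 in the authors' log2 table, 8 in the methods' t-test, 81 with trend and robust variances, 7 with array weights, 0 with slide row as a term, 1 with averaged probes and 0 to 5 with 1 heart left out. At an unadjusted p below 0.05, 3438 probes were counted with no filter and 2136 with slide row. Of the members, the count was 1 as reported, *Amph* in the contrast it was chosen on, and 0 with no filter, in the authors' table, in the methods' t-test, with slide row, with averaged probes or with any heart left out, when its difference was 1.37 to 1.52. The members at an unadjusted p below 0.05, *Amph* and *Dysf* (2), were 1 with slide row, which is estimated from HFD 3 against ND alone, and 3 in the methods' t-test (with a *Dnm2* probe) and without HFD 1 (with *Jph1*). *Bin1* turned to -0.0084 with normexp and ranged from -0.034 to 0.080 with 1 heart left out. *Cav1* turned to 0.043 with array weights and 0.089 with slide row, and ranged from -0.069 to 0.061. *Jph1* ranged from -0.0037 to 0.35. With normexp the dim *Mtm1* probe gave 0.093. The median difference of the dyad list was -0.021 with averaged probes and -0.12 without HFD 2, that of the caveolae list -0.046 to -0.14 with 1 heart left out, and that of the partners was above 0 in 3 of 15 settings. The differences of *Bin1*, *Cav1* and *Jph1* were smaller than their errors as reported, and the cause of the other changes was not tested. With the replicate number as a block, 0 probes and 0 members passed the adjustment in limma, and 3020 probes had an unadjusted p below 0.05. Nothing says that the numbers pair the hearts, and deviations of same-numbered hearts correlated at -0.154, 0.147 and 0.19, with 2 of the 3 pairs matching best.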
